A study of Mus musculus with 9 samples.

Results

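The 10 genes described here belong to the BCL2 family, which controls the mitochondrial route of programmed cell death. They were chosen by name from the 55274 gene identifiers of each library, and fall into 5 anti-apoptotic genes (Bcl2, Bcl2l1, Mcl1, Bcl2a1b and Bcl2a1d), 3 BH3-only genes (Bcl2l11, Bid and Bbc3) and 2 effectors (Bax and Bak1). RNA of 9 libraries came from bone marrow cells of female C57BL/6J mice 6 to 8 weeks old, harvested 4 days after 150 mg/kg of 5-fluorouracil and kept for 48 h with 10 ng/mL human IL-6, 6 ng/mL mouse IL-3 and 20 ng/mL mouse SCF before retroviral transduction. In 3 libraries the cells carried NRASG12D with a blue fluorescent marker, in 3 the fusion NUP98-NSD1 with a green one, and in 3 both (NUP98-NSD1+NRASG12D, the double group). NRASG12D is a RAS protein locked in its active form, and NUP98-NSD1 is a leukemia fusion of the nucleoporin NUP98 with the histone methyltransferase NSD1. Both were driven by retroviral vectors and not by their own promoters, the cells were sorted by fluorochrome and expanded, and no library of untransduced or empty-vector cells was analysed here. The sources do not say whether the replicates came from separate mice or cultures, so the p-values measure the spread between these libraries, which may be technical.

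BCL2 family proteins meet at the outer membrane of mitochondria. The effectors BAX and BAK1 open the membrane and release cytochrome c, the anti-apoptotic proteins hold them and the BH3-only proteins in check, and the BH3-only proteins carry death signals by binding either partner. Blood cells of different lineages lean on different anti-apoptotic members, and drugs that block BCL2 are used against acute myeloid leukemia.

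Levels are FPKM, fragments scaled to transcript length and to the mapped fragments of the library. Depth was estimated from the steps between low values, at 23600000 to 37150000 fragments per library. A gene was tested where 3 or more of the 9 libraries reached 1 FPKM, as all 10 members and 13493 genes in all did. Bcl2a1b and Bcl2a1d passed this filter through the 6 NUP98-NSD1 and NUP98-NSD1+NRASG12D libraries alone, so a difference from NRASG12D cells was built into their selection, and their differences from NRASG12D cells are given as a description with no p. Differences between groups are on the log2(FPKM + 1) scale and were tested with limma over all genes that passed. Nras, which checks the NRASG12D label, lay at 47.7 to 51.2 FPKM without the NRASG12D vector. With it, Nras lay at 348 to 479 FPKM (NRASG12D) and 245 to 701 FPKM (double group). Nup98 lay at 9.12 to 11.1 FPKM in NRASG12D and 18.2 to 19.0 FPKM in NUP98-NSD1 libraries. In the double group Nup98 lay at 11.9, 15.6 and 20.2 FPKM. Nsd1 overlapped among all groups, at 9.98 to 16.2 FPKM, and did not check the fusion label. The groups also differed in cell type markers. Summed over 10 mast cell genes, the NRASG12D libraries had 36190 to 38297 FPKM, the NUP98-NSD1 libraries 29111 to 35328 FPKM and the double group 784 to 4713 FPKM. Without Cpa3, a defining mast cell gene listed at 0 in all 3 NRASG12D libraries, the sums were 36190 to 38297, 15698 to 20949 and 505 to 2892 FPKM. The 9 granulocyte genes summed to 27.1 to 35.0, 1895 to 6430 and 8510 to 20904 FPKM, and the 5 macrophage genes to 39.96 to 51.5, 166 to 203 and 257 to 1412 FPKM in the same order. The 3 erythroid genes summed to 1.66 to 3.74, 24.8 to 60.2 and 3.07 to 36.9 FPKM, and the 3 megakaryocyte genes to 479 to 563, 241 to 299 and 75.7 to 1209 FPKM, with replicate 2 of the double group highest. Most of the megakaryocyte sum was Itga2b in the NRASG12D and NUP98-NSD1 libraries and Pf4 in the double group. The 2 B cell and 2 T cell markers stayed below 1 FPKM in every library. In bulk RNA, fewer cells of a type and less RNA per cell cannot be told apart. The mast cell gene Kit had 982 to 1119 FPKM in the NRASG12D libraries where Cpa3 was listed at 0. Whether a value of 0 in these data means no reads or a failed estimate was not tested.

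The A1 genes Bcl2a1b and Bcl2a1d, which encode short-lived anti-apoptotic proteins of myeloid cells, are near-identical copies on chromosome 9. They are shown first because their sequences limit how far their values can be told apart. The first 60 coding bases of Bcl2a1b, Bcl2a1d and a further copy, Bcl2a1a, follow from the GENCODE M21 transcripts, with the 6 positions that differ among them in capitals.
Bcl2a1a: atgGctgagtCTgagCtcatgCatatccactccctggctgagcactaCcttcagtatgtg
Bcl2a1b: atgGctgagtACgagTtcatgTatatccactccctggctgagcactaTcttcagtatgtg
Bcl2a1d: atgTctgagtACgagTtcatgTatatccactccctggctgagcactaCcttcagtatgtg
Over all 516 coding bases, 12 positions differed among the 3 genes. Bcl2a1b and Bcl2a1d differed at 6 of them (98.8% identity), Bcl2a1a and Bcl2a1d at 7 (98.6%) and Bcl2a1a and Bcl2a1b at 11 (97.9%). Of the stretches of 50 bases in the transcripts of Bcl2a1b, 79.2% also occurred in transcripts of another gene, and of those of Bcl2a1d 79.5%. A further annotated gene on the same strand, Gm29094, covered 49.1% of the exon bases of Bcl2a1b, with at most 3.08 FPKM in any library. The division of reads among these genes is therefore uncertain, and their sum is given beside the single values. Of the other members, Bid shared 16.4% of its stretches with Bcl2l13 and Bak1 17.1% with Ggnbp1, both on the opposite strand, and whether the counting used strand is not given in the sources used here. Bax shared 8.51% with Gm45808 and Bcl2 5.25%, nearly all with D630008O14Rik. Those partners of Bak1, Bax and Bcl2 had at most 1.88 FPKM in any library, while Bcl2l13 reached 22.5 FPKM. Bcl2l1, Mcl1 and Bbc3 shared none, and Bcl2l11 0.135%.

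Bcl2 (ENSMUSG00000057329.7, chromosome 1 from 106538178 to 106714274 on GRCm38, minus strand) encodes the founding survival protein of the family. Its level was 24.3, 22.3 and 29.6 FPKM in NRASG12D, 13.1, 16.4 and 14.8 FPKM in NUP98-NSD1, and 6.38, 5.30 and 1.51 FPKM in NUP98-NSD1+NRASG12D cells. The 3 groups followed each other downward without overlap, and replicate 3 of NUP98-NSD1+NRASG12D was the lowest library. NRASG12D cells had a mean of 25.4 ± 3.72 FPKM (SD, n = 3) and NUP98-NSD1 cells one of 14.8 ± 1.66 FPKM (SD, n = 3), a log2 difference of -0.74 (standard error 0.13, adjusted p = 0.00424, limma). With all 9 libraries in 1 fit this difference missed the threshold (adjusted p = 0.141). The double group had a mean of 4.40 ± 2.55 FPKM (SD, n = 3), which was 0.173 times that of NRASG12D cells, with a log2 difference of -2.42 (standard error 0.40, adjusted p = 0.0038). Between the NUP98-NSD1 groups (the double group minus NUP98-NSD1 alone) the log2 difference was -1.68 (standard error 0.40, adjusted p = 0.049), close to the threshold. It missed the threshold without any single NUP98-NSD1 library (adjusted p = 0.115 to 0.161) or without replicate 2 of NUP98-NSD1+NRASG12D (0.0669), with log2 differences of -1.61 to -1.87. The call was also lost with a pseudocount of 0.1 (0.0695), with no filter (0.36) and with median-ratio scaling (0.062). By rank, 28.1% of the tested genes had a higher mean than Bcl2 in NRASG12D, 45.6% in NUP98-NSD1 and 71.1% in NUP98-NSD1+NRASG12D cells.

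**Figure D1:**
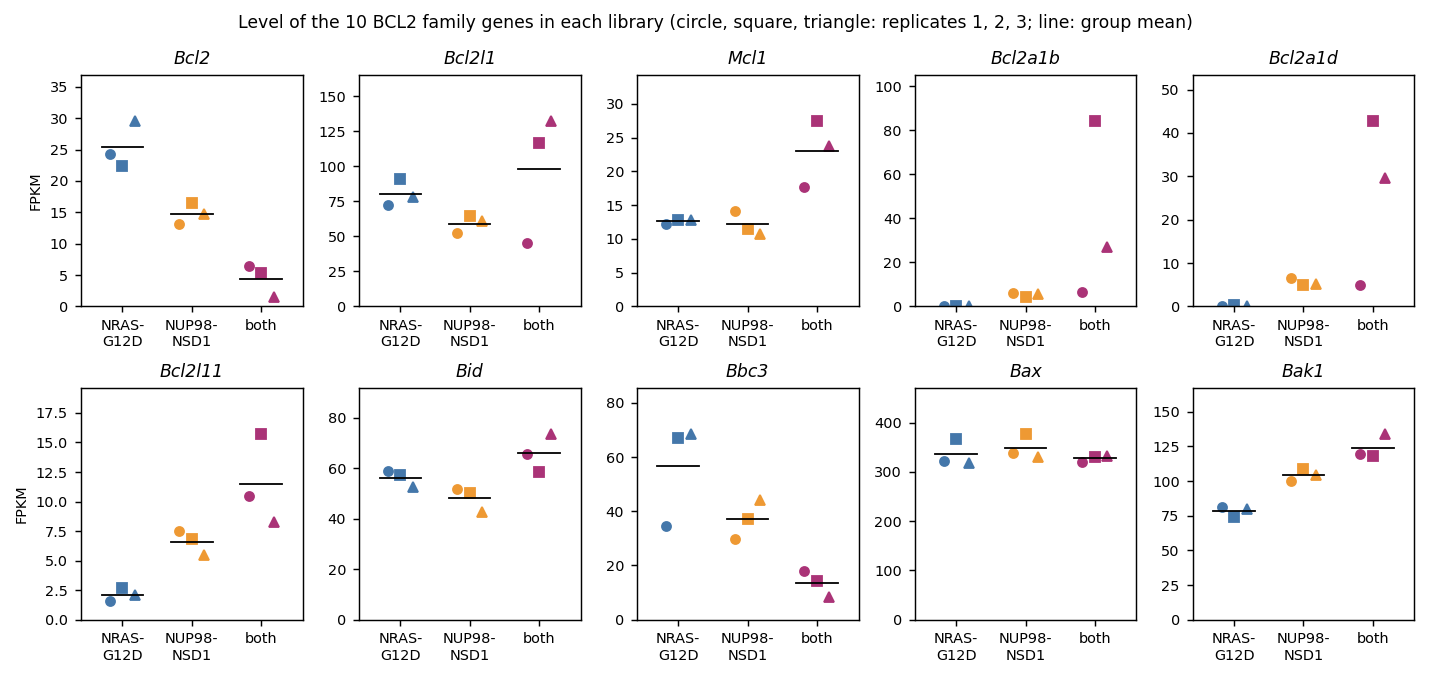
FPKM of each of the 10 genes (vertical axes from 0, each panel with its own scale) in the NRASG12D, NUP98-NSD1 and NUP98-NSD1+NRASG12D ("both") libraries. Circles, squares and triangles are replicates 1, 2 and 3 and lines are group means, left out for the A1 genes. Bcl2 steps down from group to group, Bax lies between 319 and 377 FPKM in all 9 libraries, and replicate 1 of the double group sits apart from replicates 2 and 3 for Bcl2l1 and both A1 genes.

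Bcl2l1 (ENSMUSG00000007659.18, chromosome 2 from 152780668 to 152831728, minus strand) encodes BCL-XL, a survival protein of mast, erythroid and megakaryocytic cells among others. It had the highest level of the 5 anti-apoptotic genes in 9 of 9 libraries. Its level was 72.2, 90.7 and 77.9 FPKM in NRASG12D, 52.1, 64.5 and 60.7 FPKM in NUP98-NSD1, and 45.2, 116 and 133 FPKM in NUP98-NSD1+NRASG12D cells. The double group held both the lowest library, replicate 1, and the 2 highest, replicates 2 and 3, and so overlapped both other groups, which did not overlap each other. NUP98-NSD1 cells had less Bcl2l1 than NRASG12D cells, by a log2 difference of -0.43 (standard error 0.12, adjusted p = 0.0197, limma), which missed the threshold without NRASG12D replicate 2 (adjusted p = 0.0599) or NUP98-NSD1 replicate 1 (0.0668), with no filter (0.133) and with all 9 libraries in 1 fit (0.36). Between NUP98-NSD1+NRASG12D and NRASG12D cells the log2 difference was 0.15 with a 95% interval of -0.78 to 1.08 (adjusted p = 0.781). Without replicate 1 of the double group it was 0.63 (adjusted p = 0.0175) against NRASG12D cells and 1.06 (adjusted p = 0.0122) against NUP98-NSD1 cells, where all 6 libraries gave 0.58 (adjusted p = 0.446).

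Mcl1 (ENSMUSG00000038612.16, chromosome 3 from 95658788 to 95663176, plus strand) encodes a survival protein with a short life that many myeloid cells need. Its level was 12.3, 12.8 and 12.7 FPKM in NRASG12D, 14.1, 11.5 and 10.8 FPKM in NUP98-NSD1, and 17.6, 27.5 and 23.7 FPKM in NUP98-NSD1+NRASG12D cells. All 3 double libraries lay above the 6 others, which overlapped. The mean of 22.9 ± 4.97 FPKM (SD, n = 3) was 1.82 times that of NRASG12D cells, with a log2 difference of 0.79 (standard error 0.19, adjusted p = 0.0162, limma). This call was lost without any single NRASG12D library (adjusted p = 0.0603 to 0.0672) and with median-ratio scaling or quantile normalization. Against NUP98-NSD1 cells the log2 difference was 0.85 with a 95% interval of 0.36 to 1.35, and its adjusted p of 0.0522 missed the threshold. Between NUP98-NSD1 and NRASG12D cells it was -0.06, with an interval of -0.33 to 0.21.

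The A1 genes went from a few fragments to moderate levels. Bcl2a1b (ENSMUSG00000089929.1, chromosome 9 from 89199209 to 89207827, plus strand) was listed at 0, 0.344 and 0.191 FPKM in NRASG12D and had 6.06, 4.06 and 5.77 FPKM in NUP98-NSD1 and 6.47, 84.3 and 26.98 FPKM in NUP98-NSD1+NRASG12D cells. Bcl2a1d (ENSMUSG00000099974.1, chromosome 9 from 88723285 to 88731914, minus strand) was listed at 0, 0.397 and 0 FPKM in NRASG12D and had 6.64, 4.86 and 5.17 FPKM in NUP98-NSD1 and 5.00, 42.8 and 29.6 FPKM in NUP98-NSD1+NRASG12D cells. Both were lowest in the 3 NRASG12D libraries, and replicate 1 of the double group lay beside the NUP98-NSD1 libraries, while its replicates 2 and 3 lay far above them. The level that 3 fragments give was 0.123 to 0.193 FPKM for Bcl2a1b and 0.115 to 0.181 FPKM for Bcl2a1d, depending on the library. Against NRASG12D cells the log2 difference of Bcl2a1b was 2.41 in NUP98-NSD1 and 4.48 in NUP98-NSD1+NRASG12D cells. For Bcl2a1d the same differences were 2.54 and 4.16. The size of these values follows the pseudocount, as a pseudocount of 0.1 gave 4.50 and 6.72 for Bcl2a1b. NUP98-NSD1+NRASG12D and NUP98-NSD1 cells differed by 2.07 in Bcl2a1b (adjusted p = 0.166, limma) and by 1.62 in Bcl2a1d (adjusted p = 0.208). Without replicate 1 of the double group these became 2.97 (adjusted p = 0.0167) and 2.49 (adjusted p = 0.00575).

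Summing Bcl2a1a, Bcl2a1b and Bcl2a1d takes away the division of reads among the copies. The sum was 0, 1.10 and 0.191 FPKM in NRASG12D, 21.8, 16.6 and 18.2 FPKM in NUP98-NSD1, and 18.0, 173 and 109 FPKM in NUP98-NSD1+NRASG12D cells. The double group again split, with replicate 1 inside the NUP98-NSD1 range. The summed macrophage markers had the same order over the 3 double libraries, at 257, 1412 and 669 FPKM, with 5 of 5 markers at 1 FPKM or more in each. The summed megakaryocyte markers had that order too, at 75.7, 1209 and 115 FPKM, while the granulocyte, mast cell and erythroid sums ran otherwise. Most of the megakaryocyte sum was Pf4 (62.8, 1157 and 111 FPKM), and Itga2b and Gp9 were lowest in replicate 3. Replicate 2 was highest of the 3 for all 5 macrophage markers, while replicate 3 was above replicate 1 for 3 (Cd68, Adgre1 and C1qa) and below it for 2 (Csf1r and Mrc1). In NRASG12D replicate 2, the one library of its group with all 3 A1 genes above 0, 3 of 5 macrophage and 6 of 9 granulocyte markers were highest of the group, and 2 and 1 were lowest. The part of these cells in the A1 levels was not tested. The summed row, tested with all other genes, differed from NRASG12D cells by 3.86 in NUP98-NSD1 and by 5.72 in the double group, and by 1.85 between the NUP98-NSD1 groups (adjusted p = 0.19, limma). The last was 2.81 without replicate 1 of the double group (adjusted p = 0.00564).

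**Figure D2:**
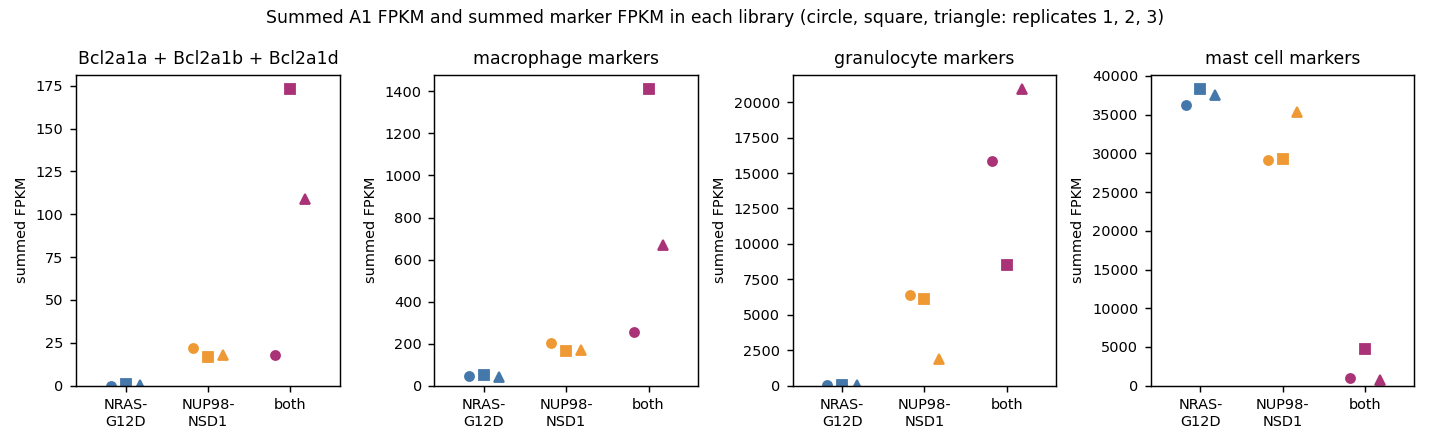
Summed FPKM (vertical axes from 0) of the 3 A1 genes and of the macrophage, granulocyte and mast cell marker lists in each library of the 3 groups. Circles, squares and triangles are replicates 1, 2 and 3. Replicate 2 of the double group is highest for the A1 sum (173 FPKM) and for the macrophage markers (1412 FPKM), and replicate 1 is lowest of that group for both.

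Bcl2l11 (ENSMUSG00000027381.16, chromosome 2 from 128126038 to 128162547, plus strand) encodes BIM, a BH3-only protein that binds all the anti-apoptotic members. Its level was 1.55, 2.67 and 2.12 FPKM in NRASG12D, 7.52, 6.82 and 5.45 FPKM in NUP98-NSD1, and 10.5, 15.7 and 8.26 FPKM in NUP98-NSD1+NRASG12D cells. No groups overlapped, with NRASG12D lowest and the double group highest. Bcl2l11 was higher than in NRASG12D cells by 1.29 on the log2 scale in NUP98-NSD1 (standard error 0.17, adjusted p = 0.00173, limma) and by 1.97 in NUP98-NSD1+NRASG12D cells (standard error 0.26, adjusted p = 0.00157), where the mean was 5.43 times as high. Both calls were kept in each of the 12 alternative fits. Between the NUP98-NSD1 groups the log2 difference was 0.68 with an interval of 0.08 to 1.28 (adjusted p = 0.153).

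Bbc3 (ENSMUSG00000002083.13, chromosome 7 from 16308393 to 16318205, plus strand) encodes PUMA, a BH3-only protein best known as a target of p53. Its level was 34.7, 67.1 and 68.4 FPKM in NRASG12D, 29.9, 37.1 and 44.2 FPKM in NUP98-NSD1, and 17.8, 14.1 and 8.46 FPKM in NUP98-NSD1+NRASG12D cells. The double libraries lay below the other 6, and NRASG12D replicate 1 lay among the NUP98-NSD1 values. Bbc3 was lower in NUP98-NSD1+NRASG12D than in NRASG12D cells by a log2 difference of -1.99 (standard error 0.35, adjusted p = 0.00486, limma). The double group was also below NUP98-NSD1 cells, by -1.44 (standard error 0.28, adjusted p = 0.0296), a call that was lost in 5 of the 6 fits without a library (adjusted p = 0.0561 to 0.121) and kept without replicate 1 of the double group (adjusted p = 0.0163). Between NUP98-NSD1 and NRASG12D cells the difference of -0.55 did not pass (adjusted p = 0.126), and without NRASG12D replicate 1 it was -0.87 (adjusted p = 0.012). The transcripts of BIM and PUMA differed in opposite directions. The ratio of Bbc3 to Bcl2l11 FPKM lay without overlap at 22.3 to 32.2 (NRASG12D), 3.97 to 8.11 (NUP98-NSD1) and 0.900 to 1.70 (double group).

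Bid (ENSMUSG00000004446.12, chromosome 6 from 120891930 to 120916853, minus strand), whose product links death receptors to mitochondria once caspase 8 has cut it, varied little. Its level was 58.7, 57.1 and 52.7 FPKM in NRASG12D, 51.6, 50.0 and 42.7 FPKM in NUP98-NSD1, and 65.5, 58.4 and 73.4 FPKM in NUP98-NSD1+NRASG12D cells. The NUP98-NSD1 libraries lay below the other 6 without overlap, yet no difference passed, at -0.22 against NRASG12D cells (adjusted p = 0.0908, limma), 0.22 for NUP98-NSD1+NRASG12D against NRASG12D cells (adjusted p = 0.263) and 0.44 between the NUP98-NSD1 groups (adjusted p = 0.14).

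Bax (ENSMUSG00000003873.11, chromosome 7 from 45461697 to 45466898, minus strand) was the most abundant of the 10 genes in every library. Its level was 322, 368 and 319 FPKM in NRASG12D, 339, 377 and 330 FPKM in NUP98-NSD1, and 319, 330 and 333 FPKM in NUP98-NSD1+NRASG12D cells. All groups overlapped, and the highest library had 1.18 times the level of the lowest, a ratio as small or smaller in 0.341% of the tested genes. The log2 differences were 0.05 (95% interval -0.17 to 0.28), -0.03 (-0.40 to 0.33) and -0.09 (-0.47 to 0.30) for NUP98-NSD1 against NRASG12D, NUP98-NSD1+NRASG12D against NRASG12D and NUP98-NSD1+NRASG12D against NUP98-NSD1 cells. This evenness is on the FPKM scale: with libraries scaled by the median ratio over genes, NUP98-NSD1 cells had less Bax than NRASG12D cells, by -0.28 (adjusted p = 0.0212, limma).

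Bak1 (ENSMUSG00000057789.14, chromosome 17 from 27019810 to 27029009, minus strand), the other effector, had 81.2, 74.2 and 79.6 FPKM in NRASG12D, 100 to 109 FPKM in NUP98-NSD1, and 119, 118 and 134 FPKM in NUP98-NSD1+NRASG12D cells. Again the groups did not overlap and the double group was highest. Against NRASG12D cells the log2 difference was 0.41 in NUP98-NSD1 (standard error 0.08, adjusted p = 0.005, limma) and 0.65 in NUP98-NSD1+NRASG12D cells (standard error 0.14, adjusted p = 0.0102). The first fell to 0.08 and the second to 0.42 with median-ratio scaling and neither passed there (adjusted p = 0.496 and 0.0648), and the second also missed the threshold without any single NRASG12D library (0.0511 to 0.0624). Between the NUP98-NSD1 groups the log2 difference was 0.24, with a 95% interval of -0.10 to 0.58 (adjusted p = 0.376). The ratio of Bax to Bak1 FPKM separated the groups, at 3.97 to 4.96 (NRASG12D), 3.17 to 3.46 (NUP98-NSD1) and 2.49 to 2.80 (double group).

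The family was counted over the 8 genes other than Bcl2a1b and Bcl2a1d, all of which had 1 FPKM or more in 9 of 9 libraries. In NUP98-NSD1 against NRASG12D cells, 4 of these 8 passed the threshold. Higher in NUP98-NSD1 cells were 2 (Bcl2l11 and Bak1), where 42.2% of all tested genes were called higher, and lower were 2 (Bcl2 and Bcl2l1), where 9.98% were called lower. Of the 8, 5 had groups that did not overlap, against 64.2% of all tested genes. In this comparison the median log2 difference was 0.27 over all tested genes and -0.14 over the 8. The scaling set the split. With median-ratio scaling, which brought the median of all genes to -0.01, 80.9% of calls being higher became 49.3%. Of the 13493 tested genes, 3059 were then called higher and 3146 lower. Of the 8 genes 1 was called higher and 6 lower, Bak1 dropping out and Mcl1, Bid, Bbc3 and Bax being lower.

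Between NUP98-NSD1+NRASG12D and NRASG12D cells 5 of the 8 passed. The 3 called higher were Bcl2l11, Bak1 and Mcl1, with 24.2% of all tested genes called higher, and the 2 called lower were Bcl2 and Bbc3, with 14.1% called lower. Groups did not overlap for 5 of 8, against 58.6% of all tested genes. The median log2 difference was 0.18 over the 8 and 0.23 over all tested genes. With median-ratio scaling the higher share of all calls went from 63.1% to 50.9%, with 2665 genes called higher and 2574 lower of 13493. Of the 8 genes Bcl2l11 was called higher and Bcl2 and Bbc3 lower. With no filter on low values, Bcl2l11 and Bak1 passed, and the adjusted p of the other 3 lay between 0.0581 and 0.0796.

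Between the NUP98-NSD1 groups, which ask what NRASG12D adds to the fusion, none of all 10 members was called higher and 2, Bcl2 and Bbc3, were called lower, beside 2.30% and 6.31% of all tested genes. Groups did not overlap for 7 of 10, against 31.4% of all tested genes. Among members with a higher level in the double group, Mcl1 had the lowest adjusted p (0.0522, limma), then Bid (0.14), Bcl2l11 (0.153) and Bcl2a1b (0.166). Without replicate 1 of NUP98-NSD1+NRASG12D, 4 members were called higher (Bcl2l1, Mcl1 and both A1 genes) and the same 2 lower. The calls over all 13493 genes then went from 1162 to 2509, 875 higher and 1634 lower. Without any other single library of the 6, at most 1 member was called, beside 283 to 1078 of all tested genes.

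**Figure D3:**
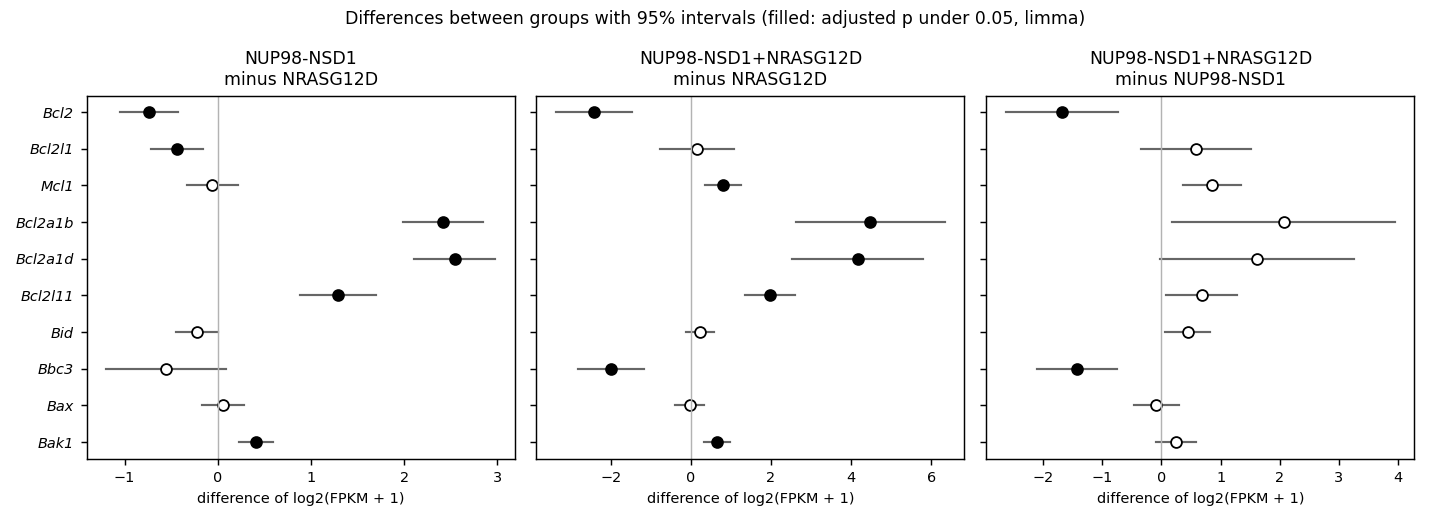
Difference of log2(FPKM + 1) between groups for each of the 10 genes (horizontal axes) in the 3 comparisons, with 95% intervals from limma. Filled points had an adjusted p under 0.05. Bcl2 is filled on the lower side in all 3 panels, and the A1 genes, which entered the test only through libraries with NUP98-NSD1, have the widest intervals wherever the double group enters. The filled A1 points against NRASG12D cells are not read as a test.

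The make-up of each class, taken within a library, does not depend on scaling between libraries. Of the anti-apoptotic FPKM, Bcl2 made up 17.7% to 24.5% in the NRASG12D libraries, 14.2% to 16.2% in the NUP98-NSD1 libraries, and 7.91%, 1.92% and 0.706% in the double group. The 2 A1 members made up 0% to 0.586%, 8.80% to 13.8%, and 14.2%, 46.0% and 26.4% in the same order. Neither share overlapped between groups. Without the A1 genes in the sum, Bcl2 still made up 17.8% to 24.6%, 16.5% to 17.8% and 0.959% to 9.22%, the first 2 ranges then overlapping. Among the BH3-only genes, Bbc3 made up 36.5%, 52.9% and 55.5% in NRASG12D, 33.6%, 39.5% and 47.9% in NUP98-NSD1, and 19.0%, 16.0% and 9.39% in NUP98-NSD1+NRASG12D cells, the double group below all others. The ratio of summed anti-apoptotic to summed BH3-only FPKM lay between 0.977 and 1.15 in the 6 libraries with a single construct. In the double group it was 0.860, 3.13 and 2.38, so replicate 1 was the lowest of all 9 libraries and the others the highest.

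**Figure D4:**
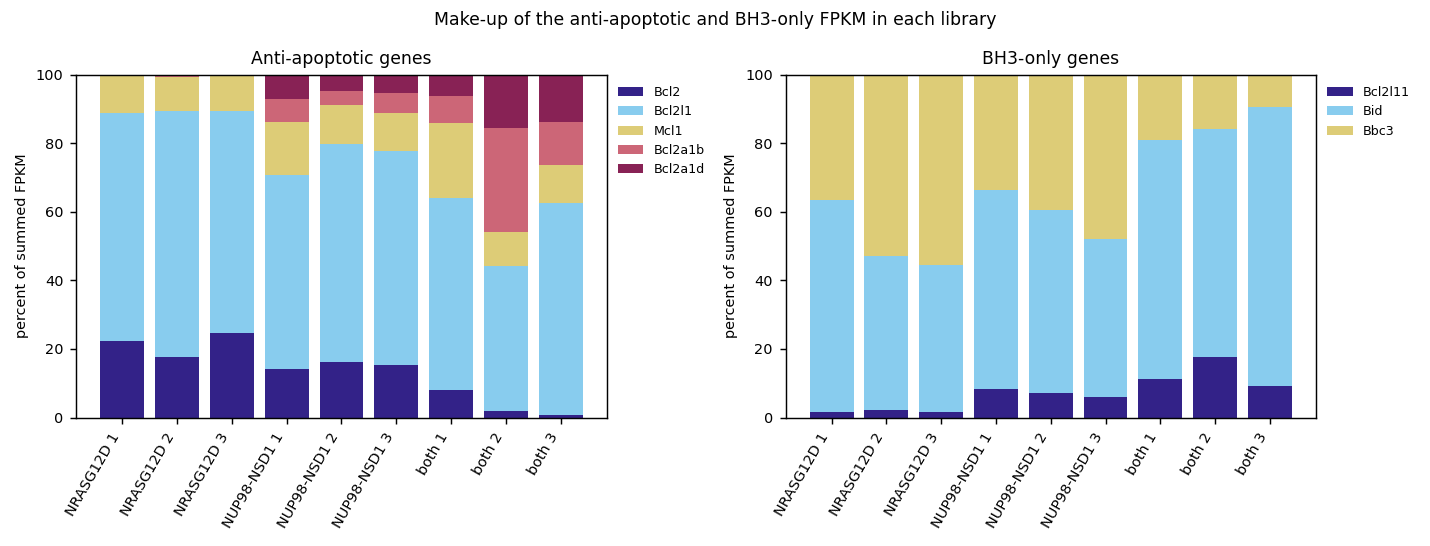
Percent of the summed FPKM of the 5 anti-apoptotic genes (left) and of the 3 BH3-only genes (right) that each gene made up in each library ("both" is NUP98-NSD1+NRASG12D). The Bcl2 segment shrinks to 0.706% in replicate 3 of the double group, the A1 segments reach 46.0% together in replicate 2, and Bbc3 gives way to Bid and Bcl2l11 on the right.

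The tested genes whose log2(FPKM + 1) ran most alike with each member over the 9 libraries give a description of each pattern. The points share their 3 groups, so high values of Pearson's r are common. Bcl2 ran with Pomt2 (r = 0.99) and Six5 (0.987), and Bbc3 with Mxd4 (0.989) and Dnaaf5 (0.981). Bcl2a1b ran with Tlr7 (0.996) and Cd302 (0.994), and Bcl2a1d with its copy Bcl2a1a (0.994) and Il1rn (0.994), genes of which Tlr7 and Il1rn are known from macrophages. Bcl2l11 ran with Kctd12 (0.997) and P2ry6 (0.989), Mcl1 with Myo1f (0.985) and Nub1 (0.978), and Bcl2l1 with Rhoc (0.985) and Ppp1r12a (0.968). Bak1 ran with Igsf8 (0.987) and Usp15 (0.986), Bid with Klhl5 (0.919) and Tm6sf1 (0.918), and Bax with Osgin2 (0.919) and Gm14686 (0.873).

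Promoter windows of RefSeq on GRCm38.p6, 250 bases before to 50 after a start, were matched by symbol for all 10 genes and gave 15 starts. They were searched on both strands for 9 sets of letters, named after factors or sites. For AP-1 the letters were TGANTCA, with any middle base where the usual site has C or G. For FOXO factors they were GTAAACA and for STAT factors TTCNNNGAA. For NF-kB they were GGG and TTCC with 3 free bases between. Those searched under the name of p53 were CATG, 2 free bases and CATG again. This spacing is not that of a p53 site, so these letters do not stand for p53 sites. C/EBP factors were given TTGCNNAA. GATA factors were given AGATAA. The E-box was CACGTG. The CRE site was TGACGTCA. The A1 genes are shown because they moved together, although reads among these near-identical copies cannot be divided with certainty. Their promoter stretches are alike as well, so matches in them are not independent. Each gene held TGAATCA, at position -164 from the start in Bcl2a1b and -114 in Bcl2a1d, and so did Bcl2a1a at -120, while 7.81% of 32851 promoters held TGANTCA. The middle base of TGAATCA is A, which the usual AP-1 site does not have. The stretches around it, with the match in capitals, lie at chr9:89199079-89199145 (plus strand) and chr9:88731928-88731994 (minus strand), outside annotated exons.
Bcl2a1b: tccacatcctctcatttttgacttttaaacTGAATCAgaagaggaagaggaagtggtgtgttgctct
Bcl2a1d: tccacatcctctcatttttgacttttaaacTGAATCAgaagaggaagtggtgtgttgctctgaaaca
Bcl2l11 and Bbc3, which went opposite ways, both held GTAAACA, the first at position -227 from a start and the second, on the other strand, at -167 from one of its starts. This motif was in 3.65% of promoters. The stretches are at chr2:128125788-128125847 and chr7:16310064-16310130 (plus strand), also outside annotated exons.
Bcl2l11: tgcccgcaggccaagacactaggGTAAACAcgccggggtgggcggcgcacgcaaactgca
Bbc3: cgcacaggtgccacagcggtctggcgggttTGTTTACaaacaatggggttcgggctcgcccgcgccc
The NF-kB letters (5.56% of promoters) were in windows of Mcl1, Bcl2l1 and Bbc3, the E-box (7.15%) in those of Bax and Bbc3, the C/EBP letters (10.8%) in that of Bid and the GATA letters (11.2%) in one of Bcl2l1. No member window held the STAT (8.30%) or CRE (1.79%) letters, which says only that these letters are not in these windows. None held the letters searched as p53 (0.575%) either, which says nothing about p53 sites.

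Genes around the family were described by whole lists. Of 14 other BCL2 family genes, 8 were tested. Between NUP98-NSD1 and NRASG12D cells 5 were called higher and none lower by limma, and between NUP98-NSD1+NRASG12D and NRASG12D cells 4 were higher and none lower, beside the shares of all tested genes given above (42.2% higher and 9.98% lower, and 24.2% and 14.1%). Of these, Bcl2a1a and Bcl2l14 passed the filter only through libraries with NUP98-NSD1, which leaves Bcl2l12, Bcl2l13 and Pmaip1 in the first comparison and Bmf and Pmaip1 in the second. With median-ratio scaling Bcl2l12 and Bcl2l13 were no longer called, while Pmaip1 and Bmf kept their calls. With quantile normalization only Pmaip1 of these stayed higher, in both comparisons, and Bcl2l2 was called lower in the first. In the main fit none of the 8 was called between the NUP98-NSD1 groups. Pmaip1, which encodes NOXA, a BH3-only protein that binds MCL1 and A1, had 17.8, 17.8 and 15.1 FPKM in NRASG12D, 36.8, 38.3 and 23.6 FPKM in NUP98-NSD1, and 76.3, 44.7 and 75.2 FPKM in NUP98-NSD1+NRASG12D cells. Its groups did not overlap, and it rose against NRASG12D cells by 0.90 (adjusted p = 0.00725) and 1.85 (adjusted p = 0.00124). Between the NUP98-NSD1 groups Pmaip1 gave 0.96 (adjusted p = 0.0857), which passed with median-ratio scaling. Bcl2a1a differed from NRASG12D cells by 3.02 and 4.58 and Bcl2l14, a little-studied relative, by 0.84 and 1.19, given with no test.

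Of the death machinery downstream of mitochondria and at death receptors, 16 genes are reported, all of them tested. Between NUP98-NSD1 and NRASG12D cells 8 were higher and 1 lower, and between NUP98-NSD1+NRASG12D and NRASG12D cells 6 were higher and 0 lower by limma, beside the same background shares. Between the double group and NUP98-NSD1 cells none of the 16 passed. The lowest adjusted p values were those of Birc2 (-0.50, adjusted p = 0.119) and Apaf1 (0.38, adjusted p = 0.166). Against the median of all genes the lists moved little, at 0.33 beside 0.27 and at 0.22 beside 0.23. With median-ratio scaling, 3059 of all tested genes were called higher and 3146 lower in the first comparison, and 2665 and 2574 in the second. The counts in this list became 4 higher and 4 lower, and 5 higher and 1 lower. The largest rises were the same in both, in Casp6, Htra2, Birc5 and Cycs. Casp6, an executioner caspase, rose by 1.43 and 1.75, Htra2, a mitochondrial protease, by 1.29 and 1.65, Birc5 (survivin, a protein of dividing cells) by 1.00 and 1.18, and Cycs, cytochrome c, by 0.93 and 1.14.

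Of the 7 genes of the p53 route, to which Bbc3 belongs, 4 were lower in each comparison with NRASG12D cells, where 9.98% and 14.1% of all tested genes were called lower. Trp53 itself was higher in NUP98-NSD1 cells by 0.44 (adjusted p = 0.0292), and did not pass in NUP98-NSD1+NRASG12D cells (0.05, adjusted p = 0.881). Phlda3, a p53 target that restrains AKT, had 61.4, 60.8 and 69.9 FPKM in NRASG12D, 43.0, 47.8 and 56.1 FPKM in NUP98-NSD1, and 11.5, 33.0 and 8.57 FPKM in NUP98-NSD1+NRASG12D cells. Against NRASG12D cells Phlda3 differed by -0.39 (adjusted p = 0.0274) and -2.02 (adjusted p = 0.012), and Zmat3 by -0.41 and -1.51 (adjusted p = 0.0106 and 0.0155). Sesn2 was lower by -0.65 and -0.90 (adjusted p = 0.00762 and 0.00986). With median-ratio scaling, 3146 of 13493 tested genes were called lower in NUP98-NSD1 cells and 2574 in the double group. Quantile normalization gave 3447 and 3064. Under either setting, 6 of the 7 p53 route genes were lower in NUP98-NSD1 and 4 in the double group, and Trp53 was not called. None passed between the NUP98-NSD1 groups with limma. Of the partners VDAC2, which holds BAK1 at the membrane, and MTCH2, the receptor of cleaved BID, Vdac2 rose by 0.51 and 0.93 and Mtch2 by 0.45 in NUP98-NSD1 cells (0.30, adjusted p = 0.231, in the double group). In NUP98-NSD1 cells neither passed with median-ratio scaling. Of the 3 genes that set the life of the MCL1 protein, Fbxw7, a ubiquitin ligase subunit, was lower by -0.42 (adjusted p = 0.0199) and -0.79 (adjusted p = 0.0209), and Huwe1 and Usp9x did not pass.

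**Figure D5:**
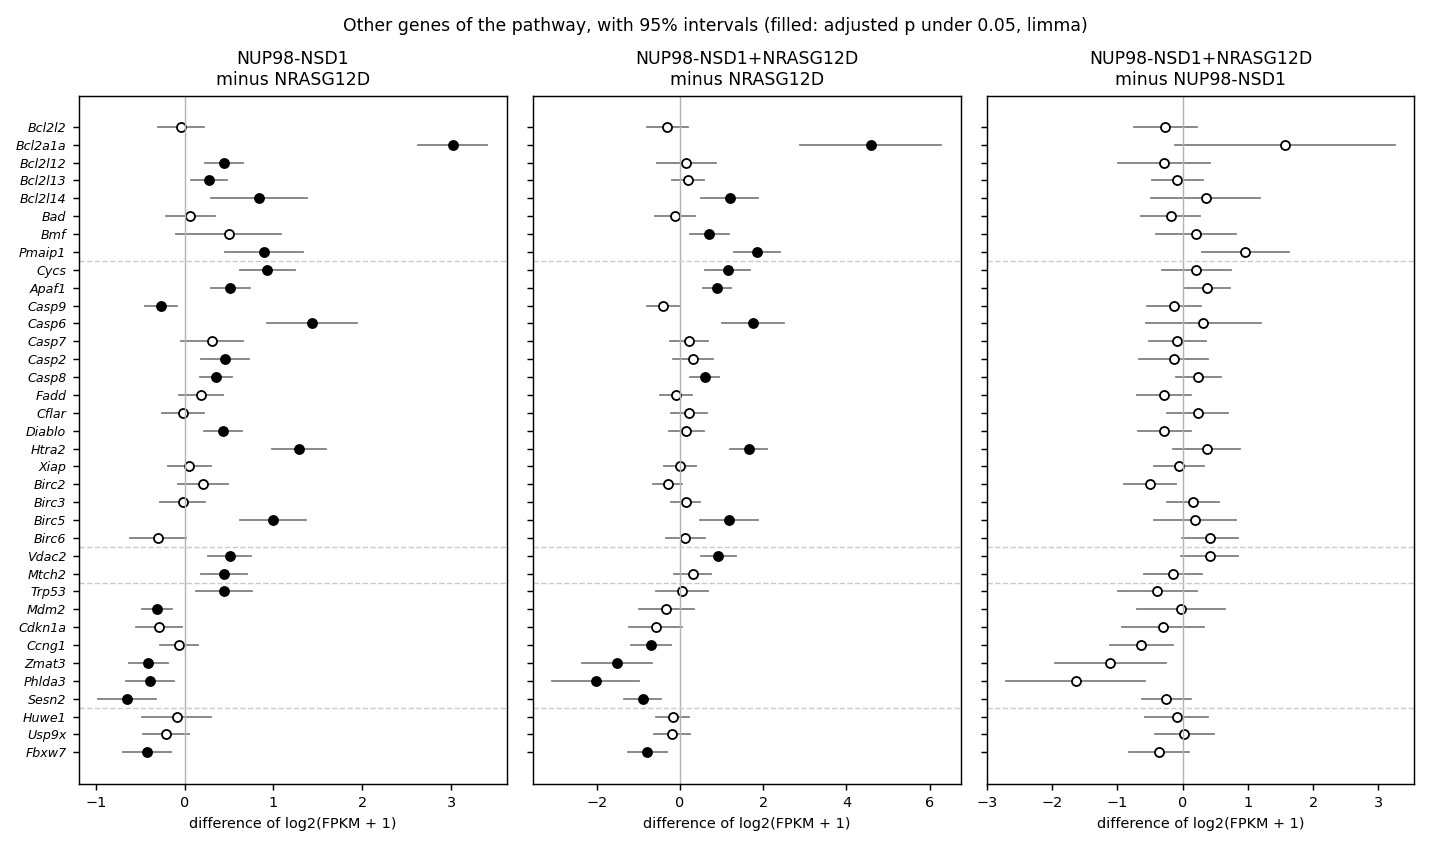
Difference of log2(FPKM + 1) for 36 tested genes of the other lists (from top to bottom, divided by dashed lines: other BCL2 family, death machinery, mitochondrial partners, p53 route and MCL1 turnover) in the 3 comparisons, with 95% intervals from limma. Filled points had an adjusted p under 0.05. No point is filled on the right. Bcl2a1a, at 3.02 on the left, and Bcl2l14 entered the test only through libraries with NUP98-NSD1. Their filled points against NRASG12D cells are not read as a test.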

How the data were processed

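The authors aligned paired reads of 50 bp to GRCm38 with GENCODE M22, using STAR (2.7.2a per the labels), and deposited FPKM from Cufflinks (2.2.1 per the labels) for each gene and library. Their count test, DESeq2, was not run on FPKM. Values of the same identifier were summed. Here, log2(FPKM + 1) of genes that reached 1 FPKM in 3 or more of 9 libraries was fitted by limma 3.58.1 in R 4.3.3 (eBayes with trend) on the 6 libraries of each pair of groups, with Benjamini-Hochberg adjustment over all 13493 genes and a threshold of 0.05. Single values can reach no exact permutation p below 0.1 with 3 libraries against 3. The fit was tested on simulated data. The floor of 3 fragments covers counting error only, since reads carried no molecular identifiers. Groups came from the labels, which name no batch. All 10 members are named, other lists by their largest passing changes. Members and lists were chosen with earlier results of these data known. Transcripts for shared sequence came from GENCODE M21, where all 10 members had equal coordinates, and promoters from RefSeq. Alternatives were a pseudocount of 0.1, no filter, median-ratio scaling, quantile normalization, all 9 libraries in 1 fit, a replicate block and each library left out. The summed A1 row was chosen after seeing the data. A further gene of the fixed lists is not reported here.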

Additional observations from a re-analysis of the deposited data

How the results depend on the processing

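Each comparison was refitted under 12 alternatives, 6 settings and 6 fits without a library. Of 360 log2 differences of single members, 296 kept their direction and side of the threshold, 36 lost and 16 gained significance, and 12 changed sign, all of them in differences that had not passed. These 360 include the A1 differences from NRASG12D cells, which were built into their selection. Sign changes under median-ratio scaling gave -0.28 for Bax in NUP98-NSD1 against NRASG12D, -0.084 for Bcl2l1 and -0.0142 for Bid in NUP98-NSD1+NRASG12D against NRASG12D, and 0.011 for Bax between the NUP98-NSD1 groups. Under quantile normalization they gave -0.15 (Bax), -0.19 (Bcl2l1) and -0.11 (Bid) in the same comparisons. Without a library, Mcl1 ranged from -0.165 to 0.0155 (positive without NUP98-NSD1 replicate 3) and Bax from -0.00337 to 0.12 (negative without NUP98-NSD1 replicate 2) in NUP98-NSD1 against NRASG12D. In NUP98-NSD1+NRASG12D against NRASG12D, Bcl2l1 ranged from -0.136 to 0.63 (negative without replicate 2 or 3 of the double group) and Bax from -0.0718 to 0.0318 (positive without NRASG12D replicate 2). With no filter, which tests 55274 genes, calls fell to 3428, 3010 and 114 genes in the 3 comparisons (from 7036, 5173 and 1162), to 2 members in the second and to 0 members in the third. With all 9 libraries in 1 fit, 3065 genes were called in the first, and 2251 genes and 4 members in the third. In the third, 1 member was called with a pseudocount of 0.1, beside 948 of all tested genes, and 1 with median-ratio scaling, beside 893. The cause of these changes was not tested. The deviations of same-numbered libraries from their group means correlated at r of -0.177 to 0.160 over the 9 pairs. Differently numbered libraries were not compared, so this cannot tell whether the numbers pair them. The replicate block called 1 member in the third comparison, beside 801 of all tested genes, Bbc3 missing the threshold (adjusted p = 0.0551, limma). In the first the block added Bid (0.0459) and Bbc3 (0.0237) as lower, beside 1253 genes called lower. Both A1 genes were called in every fit without a library in the first and second comparisons, a difference built into their selection. With them included, members called without a library ranged from 5 to 7, 5 to 8 and 0 to 6. Genes called ranged from 4736 to 7948, 2941 to 6327 and 283 to 2509. The second of these counts was 2941 to 3159 without any single NRASG12D library. The third was 283 to 494 without any NUP98-NSD1 library or replicate 3 of the double group. These fits assume for a group of 2 the spread of both groups. Depth limits the A1 genes in NRASG12D cells, which lie near the level of 3 fragments.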
